A study of Pinus pinaster with 66 samples.

Results

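In maritime pine (Pinus pinaster), 100 spots of a needle cDNA array were described whose difference between current-year and older needles was larger late in the year than early in it. For each spot, the mean of Whorls 1, 2 and 3 was subtracted from the mean of Whorl 0 in each of the 4 months with current-year needles. The score of a spot was the lower of its September and November differences minus the higher of its May and July differences, and the 100 spots with the largest score were taken. The choice was made among 5788 of the 8208 spots on the array, those measured on each of the 65 arrays used and not named by the study. These 100 are the members in what follows. January and March arrays entered the choice only through the need for a value on each array, and their values were not used.

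Needles were harvested in 2012 from the same 6 field-grown trees, 20 to 25 years old, and pooled 2 trees at a time, so that each group held 3 arrays. Each whorl holds the needles grown in a single year. Whorl 0 grew in 2012 and was harvested in May, July, September and November, and Whorl 1 (2011), Whorl 2 (2010) and Whorl 3 (2009) were also harvested in January and March, which gives 22 groups. The needle sample, in Cy3, was set against a pool of the January samples, in Cy5, on every array. The trees received no treatment, and the months and whorls are repeated harvests of the same trees, so month, weather and needle age move together within a whorl.

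Pine needles stay on the tree for several years. A new whorl expands in spring and summer, during which cells divide, enlarge and lay down wall material, and its photosynthetic and storage functions are taken up as the needles mature. In autumn the new needles enter their first winter beside older whorls that have been through that season before, and phenolic compounds such as flavonoids, made through chalcone synthase, chalcone isomerase and flavanone 3-hydroxylase, are known to accumulate in young conifer foliage.

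Values are log ratios, treated as log2, and a value above 0 is read as more transcript in the needle sample than in the January pool. That direction is likely but not stated. It rests on the signs that genes described by the study take in these values. The spots carry clone positions and no gene names, so members are given by position, and the needle label was not checked against marker genes. An array held a value for 6519 to 8076 spots. Replicate 2 of November Whorl 2 was not used, and its mean over the members was 0.03, against −0.12 and −0.08 on the other 2 arrays of that group. In whole needles, a lower share of cells that use a gene and less RNA per cell cannot be told apart.

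Most members were low in expanding needles, and in autumn they lay on either side of older needles, mostly close to them, rather than being high in young needles late in the year. The median difference of Whorl 0 from the older whorls was −0.87 in May and −0.37 in July, and it was 0.02 in September and 0.01 in November. Over all 5823 spots with a value on every array, the same medians lay between −0.04 and −0.01. In May the difference was below 0 for 88 members, and in July for 84, against 56.1% and 58.9% of all spots. In September 52 members lay above 0, and in November 53, against 45.5% and 41.8% of all spots. These values chose the members and are a description with no test.

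Only 26 members fit the description of spots low in young needles early and high in them late, with both early differences below 0 and both late differences above 0. This pattern of signs was shown by 3.19% of all spots. A further 37 members lay below the older whorls in all 4 months and only came closer to them late (27.9% of all spots), and 21 were below early and had late differences of mixed sign (14.99%). Another 12 members were above the older whorls in all 4 months, with a larger excess late (17.5% of all spots), and 4 had early differences of mixed sign with both late ones above 0 (6.42%). The late excess was usually small: 11 members passed 0.5 in September and 12 in November, of which 7 passed 1. Of all spots, 1.80% passed 0.5 in September and 1.58% in November, and 0.532% passed 1 in November. In May, 36 members lay below −1, against 3.98% of all spots.

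**Figure D1:**
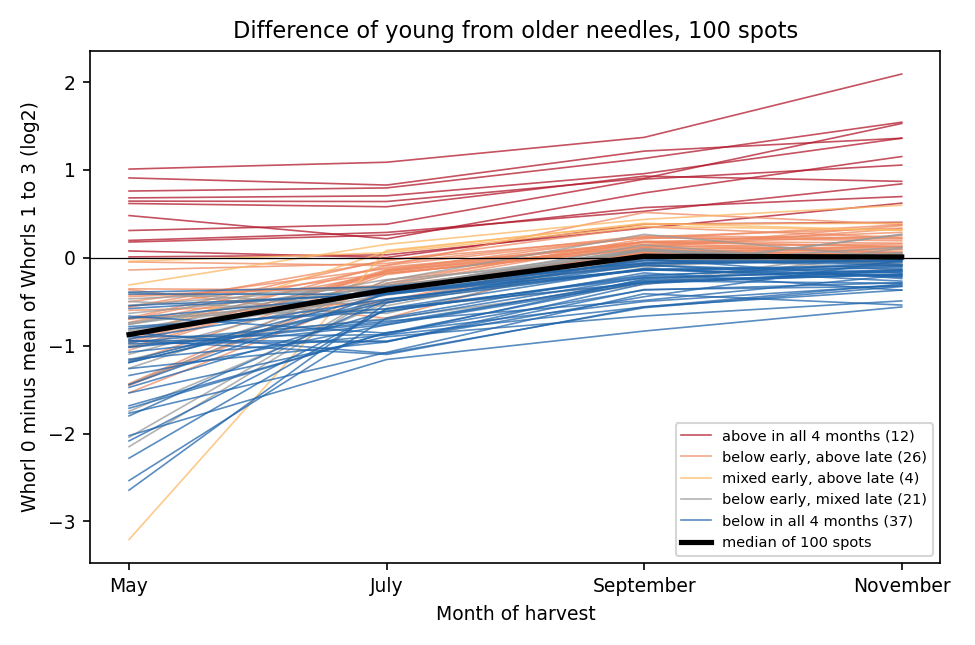
Difference of Whorl 0 from the mean of Whorls 1 to 3 (log2, vertical axis) in the 4 months with current-year needles (horizontal axis), 1 line for each of the 100 spots, coloured by the signs of the early and late differences, with the median in black. The median line climbs through −0.87 in May and −0.37 in July to about 0 in September and November, and the lines at the top belong to spots above 0 in all months, of which there are 12.

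The scores ran between 0.66 and 0.24. The last member had differences of −1.54 in May, −0.90 in July and, late in the year, −0.66 in September and −0.49 in November. The first spot outside the list had −1.27, −0.18, 0.11 and 0.05 in the same months, and its score differed from that of the last member only in the fifth decimal. A spot that stays low and a spot that crosses 0 therefore stood next to each other at the limit.

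Averaged over the 100 members, the expanding needles of May stood far below every older whorl. The mean of Whorl 0 in May was −0.51 ± 0.03 (SD, n = 3 arrays, here and below), against 0.24 ± 0.04 in Whorl 1, 0.36 ± 0.05 in Whorl 2 and 0.43 ± 0.04 in Whorl 3. In July the mean of Whorl 0 was 0.12 ± 0.05, against 0.47 ± 0.09, 0.45 ± 0.02 and 0.46 ± 0.07 in Whorls 1, 2 and 3. In September it was 0.22 ± 0.07, against 0.20 ± 0.04, 0.16 ± 0.03 and 0.13 ± 0.03. These September groups differed by about the spread between their arrays. In November the mean of Whorl 0 was 0.01 ± 0.03, against −0.10 ± 0.03, −0.10 ± 0.03 and −0.15 ± 0.05, the value of Whorl 2 being from 2 arrays in November here and below.

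**Figure D2:**
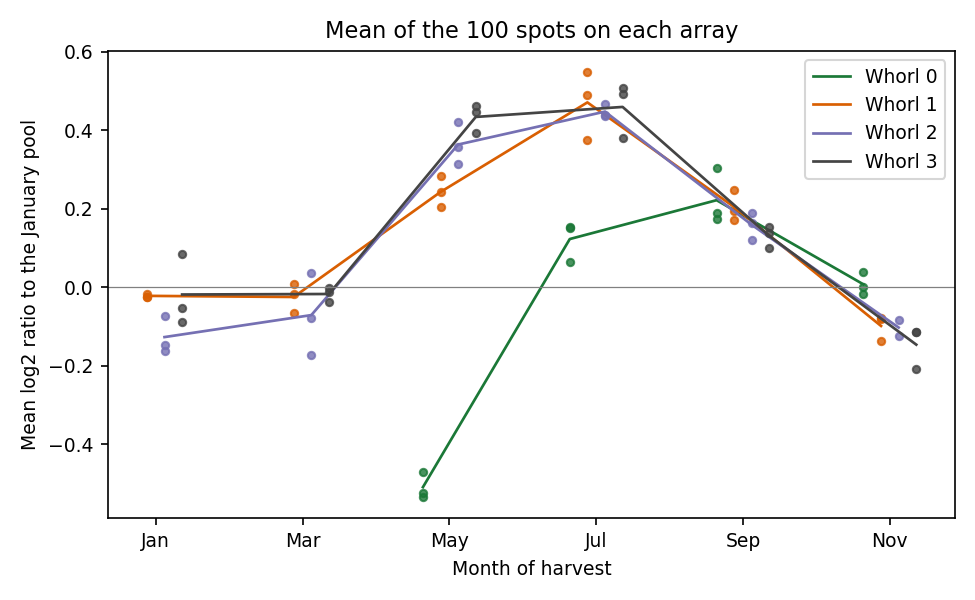
Mean log2 ratio of the 100 spots to the January pool (vertical axis) on each array (points) and per group (lines) by month of harvest, for Whorls 0 to 3. Whorl 0 is at −0.51 in May, below all arrays of the older whorls, and lies among or just above them in September and November.

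The gap closed from both sides. The mean of September and November minus the mean of May and July had a median of 0.30 in Whorl 0, where it was above 0 for 83 members, and of −0.32 in the older whorls, where it was below 0 for 81. Both moves were seen in 64 members, only the first in 19 and only the second in 17. The rise in Whorl 0 exceeded any fall in the older whorls for 49 members, a count that includes the 19 whose older whorls did not fall. Of all 5823 spots, 1127 had both moves, 2260 only the first and 1509 only the second. The change of Whorl 0 plus that of the older whorls was above 0 in 3192 of them. That count can include spots with neither move, so it is not set beside the 49. Thus the older needles, and not the young needles alone, set which spots were chosen.

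The older needles themselves followed a summer course. Their highest month was May for 34 members, July for 36 and September for 20, where it was for 14.9%, 14.3% and 23.5% of all spots. That leaves 5 for January, 3 for November and 2 for March. The levels of the older whorls in May, July, September and November entered the choice, so these counts are a description too. In Whorl 0 the lowest month was May for 84 members, against 30.8% of all spots. In May the older whorls were also graded by age: Whorl 1 lay below Whorls 2 and 3 for 74 members, with a median difference of −0.17, while 50.4% of all spots lay below. In July, September and November that median was between 0.01 and 0.04.

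The leading member by score was spot Q19M9. In May its log2 ratios were −0.87, −0.82 and −0.90 in Whorl 0, against a lowest value of −0.36, a median of 0.57 and a highest of 0.99 on the 9 arrays of Whorls 1 to 3. In July they were 0.63, 0.54 and 0.58 in Whorl 0, against 0.92, 1.53 and 2.10 as the lowest, median and highest of the older whorls. Young and older needles did not overlap in either month. In September the Whorl 0 values were 0.43, 1.03 and 0.38, against 0.51, 0.87 and 1.36, and in November −0.66, −0.06 and 0.20, against −0.57, 0.02 and 0.53 on 8 arrays. The groups overlapped in both of these months, and the mean of Whorl 0 was below that of the older whorls in all 4.

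Spot Q1L6, the second by score, had the same form on a different seasonal course. Its May values were −0.18, 0.12 and 0.06 in Whorl 0, against 0.57, 0.85 and 1.36 as the lowest, median and highest in the older whorls. In July they were 0.06, 0.08 and −0.05, against 0.61, 0.84 and 1.28. The groups were apart in both months. In September the Whorl 0 values were −0.83, −0.16 and −0.42, against −0.94, −0.21 and 0.30, and in November 0.52, 0.34 and 0.20, against −0.04, 0.49 and 0.95, with overlap in both. Whorl 0 changed little between May and July in this spot. Between July and September both fell, the mean of the older whorls from 0.91 to −0.23 and that of Whorl 0 from 0.03 to −0.47. The September narrowing came with the larger drop of the older whorls.

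Across the members, the 3 arrays of Whorl 0 lay below all arrays of the older whorls for 79 members in May and 40 in July, where 23.4% and 9.77% of all spots did so. They lay above all of them for 8 members in May and 7 in July (20.7% and 12.2% of all spots). In September 17 members were wholly above and 4 wholly below, where 4.76% and 2.39% of all spots were. In November 15 were above and 5 below, against 3.42% and 2.27%. These counts rest on the arrays that chose the members, so nothing is read from them.

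The members were more variable between arrays than other spots. The median SD within a group was 0.19 in the members and 0.10 over all spots. They also moved more alike over the 22 group means, with a median correlation between pairs of 0.41, against 0.00 over all pairs, as follows from a choice on a shared pattern. On the separate replicate numbers, the score was above 0 in all 3 for 80 members, in 2 for 19 and in 1 for 1, where 6.37%, 15.9% and 21.4% of all spots were. The same values chose the members, so high counts were built in. November Whorl 2 was absent from replicate 2 in this count.

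When 100 spots were chosen anew on 2 replicate numbers, the score in the third was above 0 for 72 spots with replicate 1 left out, 92 with replicate 2 left out and 64 with replicate 3 left out. Over all spots it was above 0 for 21.3%, 26.0% and 25.0%. Replicate 2 had no November Whorl 2 array in use, so for its score the mean of Whorls 1 and 3 stood for the older whorls in November. The median score in the left-out replicate was 0.12, 0.28 and 0.07, which is well under the 0.24 of the last member in replicates 1 and 3. The replicates come from the same 6 trees and share the reference pool, so this describes how far the pattern recurred between pools of trees.

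The 12 members above the older whorls in all 4 months had the strongest late excess. Their mean was 0.25 ± 0.03 in Whorl 0 in May, against −0.23 ± 0.05, −0.22 ± 0.06 and −0.28 ± 0.06 in Whorls 1, 2 and 3. In July it was 0.27 ± 0.11, against −0.23 ± 0.13, −0.26 ± 0.09 and −0.15 ± 0.07. In September it was 0.94 ± 0.11 in Whorl 0, against 0.10 ± 0.19, 0.12 ± 0.18 and 0.13 ± 0.05. In November it was 0.93 ± 0.25, against −0.07 ± 0.27, −0.15 ± 0.35 and −0.39 ± 0.08. Here it was Whorl 0 that moved between July and September, by more than the older whorls did.

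The 26 members that crossed 0 had a low level in May and small late differences. Their mean in Whorl 0 was −0.47 ± 0.03 in May, against 0.25 ± 0.06, 0.33 ± 0.08 and 0.37 ± 0.04 in Whorls 1, 2 and 3. In September it was 0.08 ± 0.14 in Whorl 0, against −0.01 ± 0.09, −0.09 ± 0.05 and −0.15 ± 0.05. In November it was −0.07 ± 0.04, against −0.19 ± 0.06, −0.28 ± 0.01 and −0.27 ± 0.10. The 37 members below throughout had a mean of −0.68 ± 0.04 in Whorl 0 in May, against 0.40 ± 0.05, 0.58 ± 0.05 and 0.69 ± 0.04 in Whorls 1, 2 and 3. Their November mean was −0.16 ± 0.03 in Whorl 0, against −0.01 ± 0.06, 0.08 ± 0.06 and 0.07 ± 0.08.

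January arrays gave a test on values that the choice did not use: whether the youngest whorl on the tree, which was Whorl 1 then and had grown the year before, differed from Whorls 2 and 3. With limma and Benjamini-Hochberg adjustment over all spots tested, 11 of the 100 members were higher in Whorl 1 and 2 were lower at an adjusted p under 0.05. Of all 7772 spots tested, 2.33% were higher and 4.97% lower. The median difference of the members was 0.03, and 54 lay above 0, against 51.2% of all spots. In 13 members all Whorl 1 arrays lay above those of Whorls 2 and 3, and in 7 all lay below, where 6.06% and 5.41% of all spots did so. The middle of the list thus lay near 0, and the higher calls came from a few members.

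All 11 higher members had late differences above 0 in both September and November. Of these, 8 were among the 12 members above in all 4 months, and 3 were among the 26 that crossed 0. Their January differences lay between 0.29 and 1.41, with a median of 0.53. No member below the older whorls in all months was called higher, and 1 of those was called lower. The share called among all spots with the same signs was not computed, so nothing is read from this split by sign.

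The largest January difference was that of spot Q15I18. In January its log2 ratios were 0.86, 0.78 and 0.09 in Whorl 1, against −0.83, −0.65 and −0.71 in Whorl 2 and −1.29, −0.90 and −0.58 in Whorl 3. Every Whorl 1 array lay above every array of the older 2 whorls. The difference was 1.41 ± 0.18 (SE), with a limma adjusted p of 5.4e-07. In November the same spot, now compared between Whorl 0 and older needles, had 1.42, 1.86 and 1.76 in Whorl 0, against a lowest value of −0.98, a median of −0.47 and a highest of 0.52 in Whorls 1 to 3.

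Spot Q14P5 followed it. Its January values were 0.11, 0.35 and −0.23 in Whorl 1, against −1.18, −0.91 and −0.91 in Whorl 2 and −1.31, −1.04 and −0.61 in Whorl 3. The groups did not overlap, and the difference was 1.07 ± 0.17 (SE, limma adjusted p = 2.76e-05). Its Whorl 0 values were 0.46, 0.29 and 0.32 in May and 1.01, 1.31 and 1.37 in September.

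**Figure D3:**
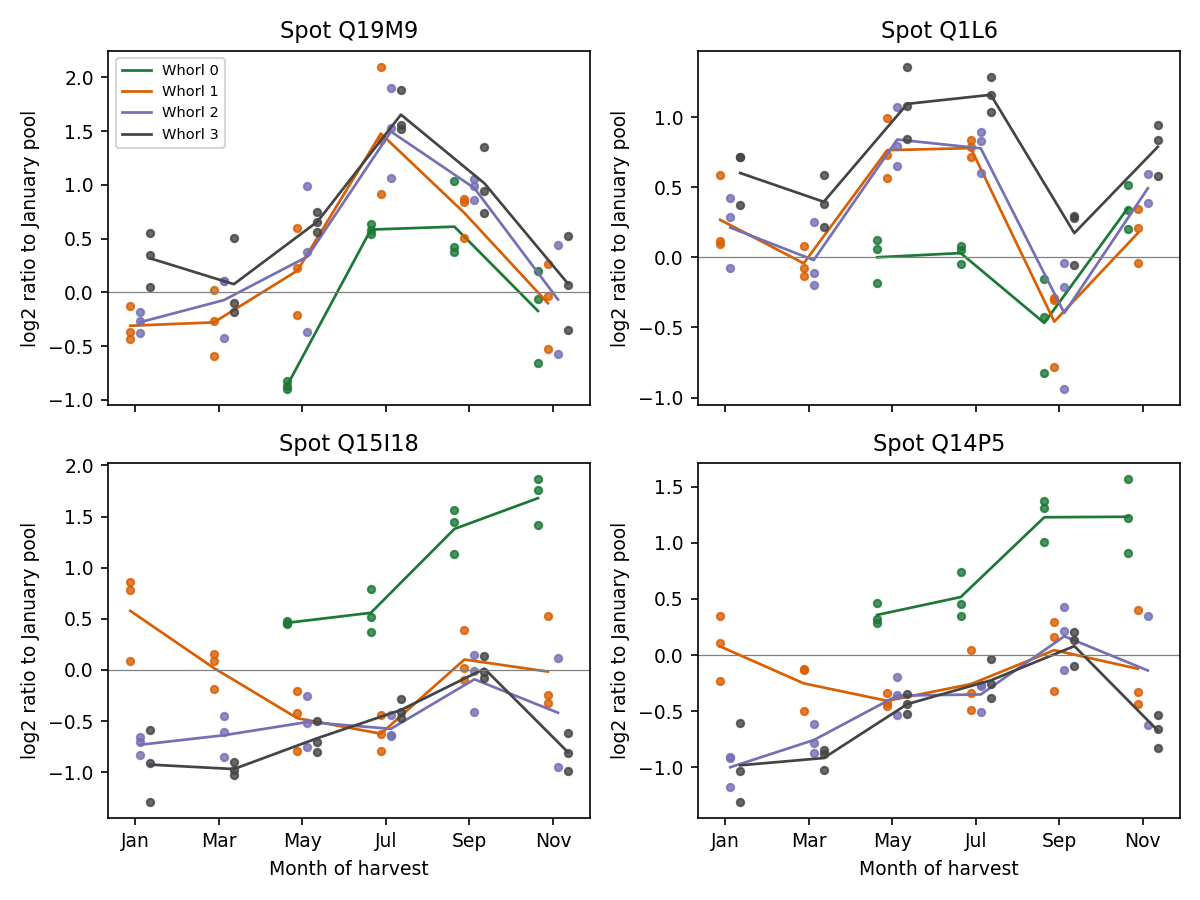
Log2 ratio to the January pool (vertical axes) on each array (points) and per group (lines) by month of harvest, for the spots Q19M9 and Q1L6, which led by score, and Q15I18 and Q14P5, which had the largest January differences, in Whorls 0 to 3. In the upper panels Whorl 0 lies below the older whorls in May and July, while in the lower panels it lies above all of them in all 4 months and Whorl 1 lies above Whorls 2 and 3 in January.

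The 2 lower members were Q6H1 and Q15K24. Spot Q6H1 had 0.24, 0.04 and 0.29 in Whorl 1 in January, against 0.76, 0.83 and 0.67 in Whorl 2 and 0.62, 0.79 and 0.98 in Whorl 3. The groups were apart, and the difference was −0.58 ± 0.15 (SE, limma adjusted p = 0.0098). Spot Q15K24 had −0.43, −0.88 and −0.53 in Whorl 1, against −0.10, −0.56 and 0.16 in Whorl 2 and 0.13, −0.43 and 0.09 in Whorl 3. Its groups overlapped, and the difference was −0.49 ± 0.14 (SE, limma adjusted p = 0.018). Neither call was firm: Q6H1 lost it in 2 of 12 alternatives, without replicate 1 (limma adjusted p = 0.061) or replicate 2 (0.31), and Q15K24 in 4, without replicate 1 (0.23) or replicate 3 (0.14), with scaled arrays (0.096) or with only January and March arrays (0.085).

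The number of January calls depended on the replicates. With the replicate number within a month as a block, 18 members were higher and 8 lower, against 5.10% and 8.07% of all spots, whereas leaving out replicate 1 or replicate 2 left 4 and 5 calls, against 1.54% and 1.84% of all spots. The differences of Q15I18 and Q14P5 stayed past the threshold in all 12 alternatives run.

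Members with a larger difference of Whorl 0 from older needles tended to have a larger January difference, in the early months as well as the late ones. Across the 100 members, the November difference of Whorl 0 from older needles and the January difference of Whorl 1 from Whorls 2 and 3 had a Pearson correlation of 0.80 and a Spearman correlation of 0.64. Over all 5823 spots the values were 0.46 and 0.14. The members' Pearson and Spearman values were 0.48 and 0.34 for the May difference, 0.81 and 0.76 for July and 0.81 and 0.71 for September. Over all spots they were 0.08 and 0.004 for May, 0.30 and 0.18 for July and 0.42 and 0.23 for September. All 4 differences had chosen the members, which ties them together, so nothing is read from the likeness between months. Without the 10 members farthest from the median in November, the November Pearson value was 0.53. The months have separate arrays, but the points share the trees and the reference pool, and this was not tested, spots of 1 array being no replicates.

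**Figure D4:**
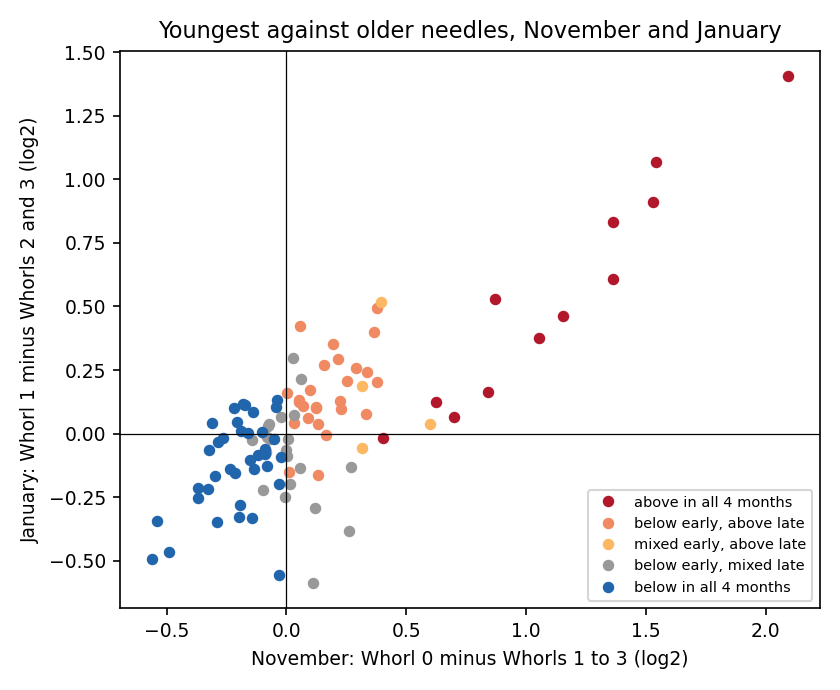
January difference of Whorl 1 from Whorls 2 and 3 (log2, vertical axis) against the November difference of Whorl 0 from Whorls 1 to 3 (log2, horizontal axis), 1 point for each of the 100 spots, coloured by the signs of the early and late differences. The 12 spots above in all months reach 2.09 in November and 1.41 in January, and most others lie within 0.5 of 0 on both axes.

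In March the same contrast called a single member. Of the 100 members, 1 was higher in Whorl 1 and 0 were lower by limma, where 0.321% and 0.0513% of all spots were, and 23 members had an unadjusted p under 0.05, against 10.5% of all spots. The called spot was Q15I18, with 0.16, 0.09 and −0.19 in Whorl 1 in March, against −0.45, −0.61 and −0.85 in Whorl 2 and −1.02, −0.90 and −0.98 in Whorl 3. The groups did not overlap, and the difference was 0.82 ± 0.18 (SE, limma adjusted p = 0.019). With replicates as a block within month, 8 members were higher and 4 lower, against 1.49% and 0.693% of all spots. The arrays of 9 members were apart with Whorl 1 above and of 0 with Whorl 1 below, against 3.52% and 1.82% of all spots. No member was called without replicate 1 (0.205% of all spots), without replicate 2 (0.0387%), with the left-out November array included (0.231%) or with the arrays scaled to 1 spread (0.180%).

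The March difference minus the January difference was tested directly. Of the 100 members, 0 were called by limma in either direction, where 0.386% of all spots were higher and 0.0773% lower, and 12 members had an unadjusted p under 0.05, against 10.9% of all spots. For Q15I18 the change was −0.58 ± 0.25 (SE, adjusted p = 0.37), and for Q14P5 it was −0.48 ± 0.24 (SE, adjusted p = 0.46). A fade of the young-needle excess between these months was thus not detectable in any member with this fit. A block within month called 0 members higher and 1 lower, against 1.16% and 0.283% of all spots, and the fit without replicate 3 called 2, against 0.586%.

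The older needles gave a second view, the change of Whorls 1 to 3 in March against January. Here 16 members were higher and 8 lower in March by limma, against 15.5% and 16.1% of all spots tested, so the share called higher was near that of all spots. The median over the members was −0.004. Of the 16 members called higher without a block, 11 were among the 37 below the older whorls in all 4 months. The share called among all spots with those signs was not computed, so nothing is read from this count.

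Spot Q6C20 had the largest rise. Its lowest, median and highest log2 ratios were 0.83, 0.96 and 1.64 on the 9 March arrays, against −0.03, 0.44 and 0.69 on the 9 January arrays, with no overlap. The difference was 0.71 ± 0.09 (SE, limma adjusted p = 1.57e-08). The mean of its older whorls went on to 2.34 in May, when Whorl 0 stood at 0.25. Spot Q8C2 had 0.90, 1.71 and 2.62 in March, against 0.25, 0.79 and 2.62 in January, with full overlap at the top. Its difference was 0.67 ± 0.26 (SE, limma adjusted p = 0.041), and it was 0.25 without replicate 2 (adjusted p = 0.61). The call was lost in 6 of 12 alternatives, among them the random replicate block within month (adjusted p = 0.13), scaled arrays (0.093) and quantile normalization (0.15).

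Among the lower members, Q21P24 had −1.42, −1.08 and −0.73 as its lowest, median and highest in March, against −0.75, −0.48 and 0.07 in January. The arrays overlapped barely, and the difference was −0.66 ± 0.11 (SE, limma adjusted p = 6.86e-06). Spot Q16J20 had −1.22, −0.84 and −0.48 in March, against −0.63, −0.50 and 0.10 in January, with overlap. The difference was −0.39 ± 0.11 (SE, limma adjusted p = 0.0042), and it was not called without replicate 3 (adjusted p = 0.17). Without replicate 2, 6 members were higher and 7 lower in Whorls 1 to 3 in March, against 7.90% and 9.83% of all spots.

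The last comparison set the oldest needles, Whorl 3, against Whorl 2 in January and March together. Here 4 members were higher and 2 lower by limma, against 5.16% and 5.21% of all spots, which is near or under the share of all spots. The median difference of the members was 0.06, and 68 lay above 0, against −0.001 and 49.4% for all spots. This shift of the list was not tested. Spot Q11L6 had a lowest, median and highest value of 0.04, 0.36 and 0.94 in Whorl 3, against −0.66, −0.21 and −0.05 in Whorl 2, with no overlap. The difference was 0.65 ± 0.09 (SE, limma adjusted p = 6.92e-06).

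The second leading member by score, Q1L6, was also higher in Whorl 3. It had 0.22, 0.49 and 0.72 in Whorl 3, against −0.20, 0.09 and 0.42 in Whorl 2, with overlap, and a difference of 0.40 ± 0.13 (SE, limma adjusted p = 0.030). The call was lost whichever replicate was left out (adjusted p between 0.087 and 0.21). Spot Q12H2 had −0.17, −0.05 and 0.09 in Whorl 3, against 0.04, 0.18 and 0.25 in Whorl 2, with overlap, and a difference of −0.20 ± 0.06 (SE, limma adjusted p = 0.038). Spot Q17I20 had −0.27, −0.18 and −0.12 in Whorl 3, against −0.11, −0.06 and 0.14 in Whorl 2, without overlap, and a difference of −0.17 ± 0.05 (SE, limma adjusted p = 0.033). Both were lower in the oldest needles, by small amounts, and the call was lost for Q12H2 in 5 of 12 alternatives (adjusted p up to 0.28) and for Q17I20 without replicate 1 or 2 (up to 0.36). With replicates as a block within month, 17 members were higher and 6 lower, against 8.73% and 8.32% of all spots, and without replicate 1 or 2 the calls numbered 2 and 1, against 3.19% and 2.75% of all spots.

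**Figure D5:**
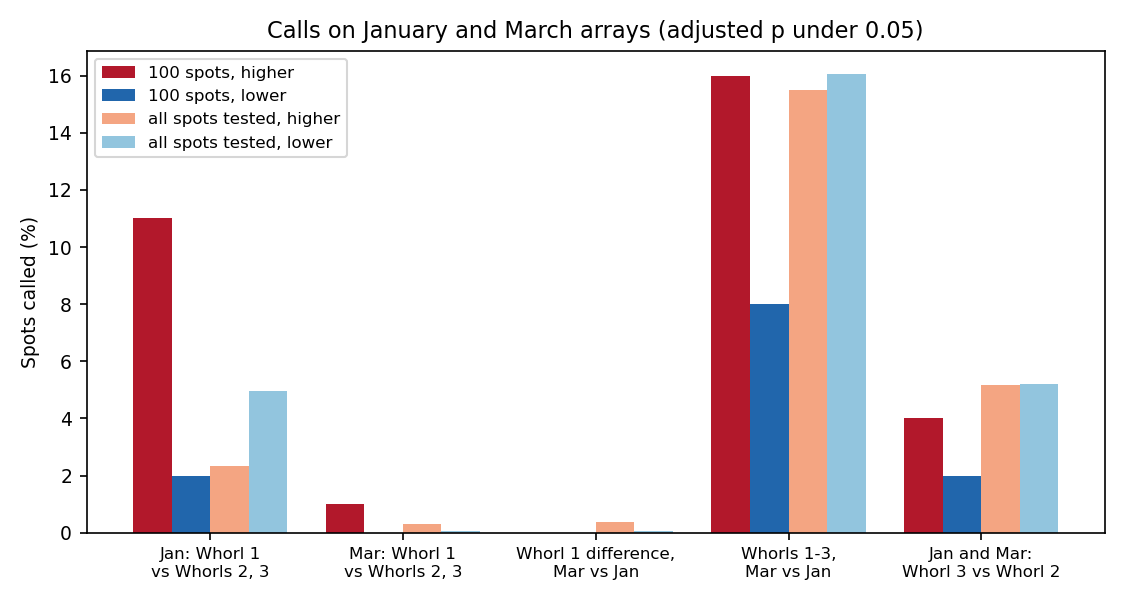
Percent of spots called at an adjusted p under 0.05 (vertical axis, limma), higher or lower, for the 100 spots and for all spots tested, in the 5 comparisons on January and March arrays (horizontal axis). In the January comparison the 100 spots stand above all spots for higher calls, with 11% against 2.33%. They stand below them for lower calls, with 2% against 4.97%. In the comparisons of months and of the oldest whorls they are near or below all spots.

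Since the members carry no names, their profile was set beside the 35 spots that the study describes and that have a value on every array. These genes were picked by the study on these arrays, and the correlations over 22 group means are a description. The mean profile of the members was most like Q17J10, a ketol-acid reductoisomerase of branched-chain amino acid synthesis (r = 0.76), and Q17N23, a pectin methylesterase-like protein, of a family that acts on cell wall pectin (0.73). Next came Q6B3, a UDP-arabinose mutase, which supplies arabinose for wall polymers (0.73), Q16E20, a protein with an exonuclease domain (0.72), and Q22K3, a clathrin light chain of coated vesicles (0.71). All 5 are among the genes the study listed for temperature. Their own scores lay between −0.07 and 0.18, under that of the last member.

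Of these, the clathrin light chain spot Q22K3 had the largest November difference of Whorl 0 from older needles, 0.34, beside −0.10 in September. Its mean was 0.80 ± 0.05 in Whorl 0 in July, against 1.12 ± 0.24, 0.95 ± 0.07 and 1.17 ± 0.02 in Whorls 1, 2 and 3. In November it was 0.28 ± 0.11 in Whorl 0, against 0.08 ± 0.16, −0.20 ± 0.19 and −0.05 ± 0.07. Young needles lay below all older arrays in July and overlapped them in November.

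A pair of spots named by the study would have entered the list on score. Spot Q17L11, an armadillo repeat protein, a family that binds other proteins, had a score of 0.29. Its difference of Whorl 0 from older needles was 1.07 in May and 1.09 in July, then 1.38 in September and 1.98 in November, and the arrays were apart in all 4 months. In form it was thus like the 12 members above throughout. Spot Q16P17, an R2R3-Myb transcription factor, a family of plant regulators, had a score of 0.27, with differences of −0.03, 0.22, 0.50 and 0.49 in the same months.

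Spot Q16P17 was close to the pattern the choice was meant to find. Its Whorl 0 means were −0.01 ± 0.02 in May and 0.15 ± 0.11 in July, where they overlapped the older whorls. In September the mean was 0.39 ± 0.16 in Whorl 0, against −0.10 ± 0.07, −0.10 ± 0.05 and −0.14 ± 0.10, and in November 0.33 ± 0.06, against −0.12 ± 0.08, −0.15 ± 0.08 and −0.22 ± 0.07. Its young and older needles did not overlap in September or in November.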

How the data were processed

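The deposited values are log ratios of a 2-colour cDNA array, normalized between arrays by the authors with BABAR. The base of the logarithm is not given in the sources used here, and these ratios as normalized by the authors were taken as log2. Every array had a median of 0, and no further normalization was applied. Replicate 2 of November Whorl 2 was not used, as the rule for the members states. Tests were run in limma 3.58.1 (R 4.3.3) on 22 group means that shared moderated variances. Benjamini-Hochberg adjustment ran over all spots measured in every group compared and on a share of at least 0.5 of the arrays. A simulation on 5823 spots for the January comparison recovered 95% of the spots given a change of 0.5 and 100% of the spots given a change of 1, and called 5 others. Its noise was independent between arrays, and the changed spots were drawn from all spots. The median SD within a group was 0.10 over all spots and 0.19 in the members, so these rates are not rates for the members. Tested differences were between January and March arrays only, while the variances came from all 65 arrays used, among them those that chose the members. Replicate arrays are pools of 2 trees.

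Replicates of 1 number were taken to be the same pool of trees, as a caption of the study ties numbers to individuals. Deviations from group means correlated by 0.28 on average within a month between same-numbered arrays, and 68 of 87 such pairs were above 0.1. The members, lists and tests were chosen with earlier results of these data known. Spots are named as the 2 members with the largest score, at most 2 higher and 2 lower members with the largest called difference per comparison, and, of 43 spots named by the study, the 5 most like the members' mean and those whose score passes the last member's. The classes by sign, and the spots set beside them, were formed after their values were seen. Python 3.11.15 with numpy 2.4.6, pandas 2.3.3 and matplotlib 3.10.9 was used for the remaining values.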

Additional observations from a re-analysis of the deposited data

How the results depend on the processing

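Among the 100 members, calls in either direction numbered 13 for January, 1 for March, 0 for the March against January change of that difference, 24 for the March change of Whorls 1 to 3 and 6 for Whorl 3 against Whorl 2, and the shares of all spots called were 7.30%, 0.372%, 0.464%, 31.6% and 10.4%. With the replicate number as a fixed block within month they numbered 26, 12, 1, 36 and 23 (all spots 13.2%, 2.18%, 1.44%, 39.5% and 17.05%), with it as a random block 21, 7, 1, 18 and 17 (12.8%, 1.86%, 1.61%, 22.02% and 16.8%), and with a block over all months 16, 1, 0, 31 and 11 (8.23%, 0.667%, 0.464%, 33.4% and 11.6%). The counts for the March change of Whorls 1 to 3 were thus under the share of all spots in all of these fits. Scaling the arrays to 1 spread gave 8 for January and 0 for March (all spots 3.58% and 0.180%), quantile normalization gave 3 for March (0.963%), including the November array gave 0 for March (0.231%), and using only spots with a value on all arrays gave 3 for Whorl 3 against Whorl 2 (6.35%). With only January and March arrays, January had 17 calls (6.64%). Leaving out 1 replicate in turn gave 4 to 16 calls for January, 0 to 3 for March, 0 to 2 for their difference, 13 to 18 for the March change of Whorls 1 to 3 and 1 to 4 for Whorl 3 against Whorl 2, where 1.54% to 8.91%, 0.0387% to 0.568%, 0% to 0.586%, 17.6% to 29.0% and 2.75% to 10.3% of all spots were called. Fits without a replicate have fewer arrays. For the others the cause was not tested.

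Of 156 differences recomputed for the named members, 129 stayed past the threshold, 27 did not and 0 changed sign. In March, Q15I18 had adjusted p between 0.0031 and 0.27 over its 12 alternatives. The list itself held 68 to 73 of the same 100 spots without 1 replicate, 69 after quantile normalization, 72 after scaling or with group medians, and 90 with the November array included. A score from the mean of the late minus the mean of the early differences chose only 25 of them, and a list of 50 holds 50 of them by construction. Of the 100 members, 38 to 43 lay above the older whorls in both late months and 83 to 86 below them in both early months under 6 alternatives, which were chosen after seeing the data. No intensities were used, so the signal over background behind each value is unknown.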

Other observations

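The classes of members formed by the signs of their differences were set beside the same 35 described spots, after their values were seen and with no test. The mean of the 12 members above the older whorls in all 4 months was most like spot Q15K3, a chalcone isomerase (r = 0.98 over 22 group means), Q17L11, the armadillo repeat protein (0.97), and Q15G15, a flavanone 3-hydroxylase (0.96). Chalcone isomerase and flavanone 3-hydroxylase are successive enzymes of flavonoid synthesis. Member Q15I18 alone had a correlation of 0.99 with Q17L11. Taken one by one, Q19G18, Q17O12 and Q4M18 were most like a flavonoid enzyme spot. The others of the 12 were most like Q17L11, a COP9 complex spot or a protein-binding protein spot. The 4 flavonoid enzyme spots with a value on all arrays had scores between −0.13 and 0.06, against 0.24 or more in the members. Their median differences of Whorl 0 from older needles were 1.29 in May and 1.13 in July, then 1.25 in September and 1.84 in November. Their median differences of Whorl 1 from Whorls 2 and 3 were 1.34 in January and 0.76 in March, values of the same order as those of the members Q15I18 and Q14P5.

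The 26 members that crossed 0 were most like spots Q17J10, the ketol-acid reductoisomerase (r = 0.76), Q6B3, the UDP-arabinose mutase (0.74), and Q17N23, the pectin methylesterase-like protein (0.73). The number after the Q in a spot position took 22 values, and the members held 21 of them. Among spots with a value on every array, members were 9 of the 321 numbered 15 (2.80%). They were 2 of the 46 numbered 22 (4.35%) and 0 of the 277 numbered 9.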
